A study of Mus musculus with 18 samples.

Results

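Tamoxifen was given for 2 weeks, and its effect on the transcriptome of short-term (ST) haematopoietic stem cells was set against its effect on long-term (LT) ones. The measure was the difference of effects, which is tamoxifen minus oil in ST cells less tamoxifen minus oil in LT cells, and it was tested in each of 14419 genes. It used 12 of the 18 libraries of the series, chosen by their labels alone. The 4 groups held 3 libraries each, labelled A, B and C, and were ST cells with tamoxifen, ST cells with the corn oil vehicle, LT cells with tamoxifen and LT cells with oil. The donors were adult male C57BL/6 mice, bone marrow was the source, and the labels name no allele or transgene. The 6 libraries of multipotent progenitors (MPPs), treated for 1 week, entered no fit reported here unless named. The design text calls the libraries biological replicates, but the sources used here do not say whether 1 library stands for 1 mouse, and p-values measure the spread between these libraries.

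LT stem cells divide rarely and can rebuild the blood of an irradiated host for life, whereas ST cells, which descend from them, do so for a limited time and lie closer to lineage choice. Tamoxifen is a selective estrogen receptor modulator, which binds the nuclear estrogen receptors and activates or blocks their target genes depending on the tissue. Estrogens are known to change the cycling of mouse blood stem cells. Commitment to the granulocyte and monocyte lineage begins with low expression of granule genes such as Mpo, which later precursors express at very high levels.

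Values are the authors' normalised signal, scaled like counts per library and called normalised CPM here, and effects are differences on the log2(value + 1) scale, so a difference of effects compares ratios, not amounts. A gene without reads is listed at a small value above 0, because 0.5 read had been added to each count. The libraries held 3611749 to 3982982 reads in ST tamoxifen, 2728800 to 3267591 in ST oil, 3203195 to 3857229 in LT tamoxifen and 3361891 to 4560482 in LT oil. LT tamoxifen library A stood apart. Mitochondrial ribosomal RNAs made up 25.5% of it, while LT tamoxifen libraries B and C held 17.7% and 18.7% and LT oil libraries 18.2% to 18.7%. The shares were 19.3% to 24.4% in ST tamoxifen, where library A also held the highest, and 18.3% to 21.9% in ST oil. The labels were checked in oil, where 3569 genes (24.8%) differed between ST and LT cells, 10.8% higher and 14.0% lower in ST cells. Of 36 genes typical of LT stem cells, 25 were lower in ST cells, among them Fgd5 (log2 difference -1.84) and Mecom (-1.43), and 1 was higher. Of 19 genes typical of multipotent progenitors, 10 were higher in ST cells, led by Cd48 (3.07), and 0 were lower.

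The tamoxifen effect differed between ST and LT cells in 2 genes, Mpo and Atp8b4, and in both it was more positive in ST cells. These were 0.0139% of the genes tested by limma with Benjamini-Hochberg adjustment at 0.05, and no gene passed with a more negative effect in ST cells. At an unadjusted p under 0.05 there were 1565 genes (10.9%), 902 with a more positive effect in ST cells (6.26%) and 663 with a more negative one (4.60%). The shares of 6.26% and 4.60% are the background for the unadjusted counts of each gene list below. Among protein-coding genes alone, as classed further below, the shares were 6.93% and 3.13% and the median difference was 0.07. With edgeR 2 genes passed, and with DESeq2 46 passed in the positive and 38 in the negative direction. With ST and LT libraries blocked by treatment and letter, 31 passed, 18 in the positive and 13 in the negative direction. The difference of effects had a median of 0.03 over all genes, with 5th and 95th percentiles of -0.94 and 0.84, and its median standard error was 0.37, against 0.26 for the effect in a single population. Within each population the same fit called 898 genes in ST cells (6.23%), of which 560 rose (3.88%) and 338 fell (2.34%), and 34 in LT cells (0.236%), of which 10 rose (0.0694%) and 24 fell (0.166%).

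**Figure D1:**
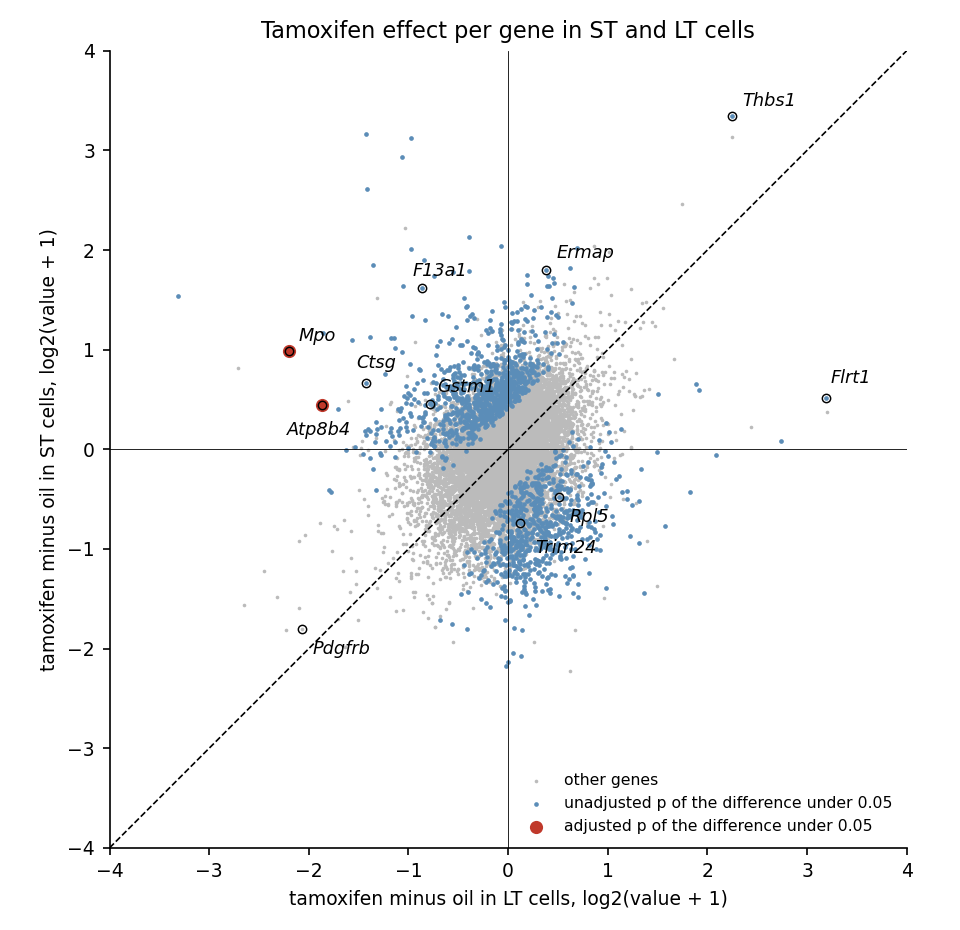
Tamoxifen effect of each of the 14419 genes in ST cells (vertical axis) and in LT cells (horizontal axis), both as tamoxifen minus oil on the log2(value + 1) scale; genes on the dashed line had equal effects. Mpo and Atp8b4 (red) lie above the line on the left, Flrt1 lies far below it on the right, and Pdgfrb lies near it at the lower left, and Thbs1 lies at the upper right, above it by 1.10.

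Mpo (ENSMUSG00000009350) encodes myeloperoxidase, the haem enzyme of the primary granules of neutrophils. It had 2008, 2131 and 2393 normalised CPM in ST tamoxifen libraries A, B and C, against 945, 1185 and 1166 in ST oil. In LT cells it had 17.99, 25.5 and 15.8 with tamoxifen, against 97.2, 99.5 and 82.3 with oil. No tamoxifen library overlapped an oil library in either population, and the groups parted in opposite directions. Mpo rose in ST cells (log2 change 0.99 ± 0.16 SE, limma adjusted p = 0.00145) and fell in LT cells (-2.20 ± 0.16, adjusted p = 2.84e-08). The difference of effects was 3.19 ± 0.226 (95% interval 2.72 to 3.66, adjusted p = 1.72e-08). Mpo was the 1 gene of 14419 that was called in opposite directions in ST and LT cells. In oil it was already higher in ST cells than in LT cells, by 3.55 on the log2 scale. In the MPPs treated for 1 week it averaged 1169.5 ± 951 with tamoxifen and 811 ± 198 with oil (SD, n = 3 each), so that the MPP tamoxifen libraries spread widely. In a fit that also held the MPP libraries, and so their spread, the difference between ST and LT cells missed the threshold (adjusted p = 0.0697).

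Atp8b4 (ENSMUSG00000060131), which encodes an ATPase of the family of phospholipid flippases, had 160, 185 and 193 normalised CPM in ST tamoxifen, against 156, 121 and 118 in ST oil. LT cells had 5.80, 5.85 and 5.56 with tamoxifen, against 22.2, 20.6 and 28.8 with oil. Here the LT groups lay far apart, and the ST groups were separated by a narrow margin. Atp8b4 fell in LT cells (-1.87 ± 0.179, limma adjusted p = 3.19e-06), and its change in ST cells did not pass (0.45 ± 0.179, adjusted p = 0.138). The difference of effects was 2.32 ± 0.253 (95% interval 1.79 to 2.84, adjusted p = 3.59e-05). It passed in 26 of 26 alternative analyses, and that of Mpo in 25 of 26. MPPs had 162 ± 91.4 with tamoxifen and 161 ± 15.3 with oil (SD, n = 3 each).

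The 250 bases before the start of each of these genes are shown because they were the pair whose effects differed. They are given 5′ to 3′ on the gene's strand from RefSeq (GRCm38.p6), with Mpo at chr11:87793534-87793783 on the plus strand and Atp8b4 at chr2:126491554-126491803 on the minus strand. Capitals mark GAGGAA, the core bound by the myeloid factor PU.1, and CCAAT, which names the CCAAT box.
Mpo: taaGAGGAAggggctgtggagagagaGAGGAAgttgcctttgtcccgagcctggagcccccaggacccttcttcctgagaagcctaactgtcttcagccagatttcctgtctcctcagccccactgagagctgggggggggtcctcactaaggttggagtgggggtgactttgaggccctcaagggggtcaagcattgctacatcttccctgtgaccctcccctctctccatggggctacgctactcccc
Atp8b4: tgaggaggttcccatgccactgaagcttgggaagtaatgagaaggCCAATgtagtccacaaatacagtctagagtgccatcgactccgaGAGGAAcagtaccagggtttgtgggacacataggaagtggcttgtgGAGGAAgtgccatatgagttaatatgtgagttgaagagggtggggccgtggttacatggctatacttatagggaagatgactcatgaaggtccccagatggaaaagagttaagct
GAGGAA stood 2 times in each window, at -247 and -224 from the start of Mpo and at -161 and -115 from that of Atp8b4. Of 32851 RefSeq windows of this length, 23.3% held it on either strand and 3.54% held it 2 or more times. CCAAT stood at -205 of Atp8b4 and is held by 33.8% of windows. The other 3 motifs of the 5 searched on both strands had no match in either window. These were the palindromic estrogen response element (in 0.0639% of all windows), the nuclear receptor half-site AGGTCA (14.0%), which can lie within a longer element, and the RUNX core TGTGGT (14.0%). A match describes the letters of the window and not binding.

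F13a1 and Ctsg, both expressed in the myeloid lineage, came next by p among the positive differences that the naming rule gives. Mtus1, outside the rule because of its low mean, lay between them by p (2.02 ± 0.394, limma adjusted p = 0.0943). Ermap, Aldh1a1 (1.47 ± 0.302, adjusted p = 0.0943) and Gstm1 followed. F13a1, the A subunit of coagulation factor XIII, found in monocytes and platelets, had 90.2, 81.3 and 86.4 normalised CPM in ST tamoxifen, against 30.8, 26.0 and 25.4 in ST oil. It was near its limit of detection in LT cells, with 1.04, 0.713 and 0.752 in tamoxifen (7 reads in all), against 2.81, 4.71 and 0.696 in oil (32 reads). F13a1 rose in ST cells (1.62, limma adjusted p = 0.0074), the LT groups overlapped, and the difference of effects did not pass (2.48 ± 0.476, adjusted p = 0.0943). Ctsg encodes cathepsin G, a protease stored in the same granules as myeloperoxidase. It had 248, 196 and 235 in ST tamoxifen, against 177, 168 and 96.0 in ST oil. In LT cells it had 2 reads in the 3 tamoxifen libraries together, against 32 in oil. Its fall in LT cells passed (-1.43, adjusted p = 0.0474) and its difference of effects did not (2.09 ± 0.424, adjusted p = 0.0943). Both LT values rest on a few reads, and the 2 differences passed in 8 of 26 alternatives each.

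Granulocyte-monocyte genes, a list of 26 that holds Mpo and Ctsg and also the more widely expressed Calr and Gstm1, had a median difference of effects of 0.70, against 0.03 for all genes. Without LT tamoxifen library A the list's median was 0.46, the lowest of the 26 alternatives. Of the list's members 8 (30.8%) had an unadjusted p under 0.05 in the positive direction and 0 in the negative one, against 6.26% and 4.60% of all genes. The list's median effect was 0.45 in ST cells, where 3 members rose and 1 fell (3.88% and 2.34% of all genes), and -0.35 in LT cells, where 0 rose and 2 fell (0.0694% and 0.166% of all genes). Elane, the neutrophil elastase, had 370, 326 and 415 normalised CPM in ST tamoxifen, against 154, 224 and 142 in ST oil. LT cells had 0.744, 0.143 and 3.16 with tamoxifen, against 1.36, 6.60 and 4.32 with oil. The ST groups of Elane did not overlap, and its LT groups did; its difference of effects was 2.29 ± 0.69 (adjusted p = 0.29). Gfi1, a transcriptional repressor needed for granulocytes, had 29.1, 22.1 and 19.6 in ST tamoxifen, against 20.2, 20.4 and 19.2 in ST oil, and 4.61, 8.42 and 2.56 in LT tamoxifen, against 10.7, 10.1 and 15.5 in LT oil. The summed level of the list was 4778 to 5203 in ST tamoxifen, 2882 to 3599 in ST oil, 627 to 966 in LT tamoxifen and 1024 to 1072 in LT oil, so the groups did not overlap in either population. That separation in LT cells rested on Mpo. Without it, a sum added after the values were seen, the other 25 members summed to 609 to 940 in LT tamoxifen and 925 to 990 in LT oil, which overlapped, and to 2683 to 2810 in ST tamoxifen and 1937 to 2414 in ST oil, which did not. In bulk RNA, fewer cells of a type and less RNA per cell cannot be told apart.

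Markers of mature myeloid cells, which a sort of stem cells could hold as a minority, also had positive median differences. This was not particular to myeloid cells. The medians were 0.49 for B cell markers, 0.49 for T and NK cell markers, 0.29 for stroma and endothelium markers and 0.21 for erythroblast markers. Of 17 neutrophil markers 4 had an unadjusted p under 0.05 for a more positive effect in ST cells and 0 for a more negative one. Their median was 0.55, and 0.36 without LT tamoxifen library A. Lcn2, a neutrophil granule protein, had 9.43, 22.7 and 28.1 normalised CPM in ST tamoxifen, against 3.13, 12.4 and 4.54 in ST oil, and 3.72, 7.56 and 4.36 in LT tamoxifen, against 4.69, 12.8 and 5.99 in LT oil. Its groups overlapped in both populations (difference 1.96 ± 0.649, adjusted p = 0.29). The neutrophil markers summed to 468 to 672 in ST tamoxifen, 480 to 688 in ST oil, 161 to 260 in LT tamoxifen and 254 to 273 in LT oil. Of 17 macrophage and monocyte markers 6 were past the unadjusted threshold in the positive direction and 0 in the negative one. Their median was 0.72, and 0.40 without LT tamoxifen library A. They summed to 764 to 830 in ST tamoxifen, 607 to 800 in ST oil, 187 to 337 in LT tamoxifen (187 in library A, 337 and 306 in B and C) and 322 to 339 in LT oil. Axl, a receptor kinase of macrophages, had the smallest p of them (1.21 ± 0.402, adjusted p = 0.286). The complement gene C1qa stood at 2.26, 2.14 and 3.21 in ST tamoxifen and at 2.09 or below in each other group. No marker of either list passed the adjusted threshold in ST or in LT cells, Ly6g and Marco were not analysed here, and the part of such cells in the result was not tested. Ctsg, Gfi1 and Elane are themselves also expressed in granulocyte precursors.

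**Figure D2:**
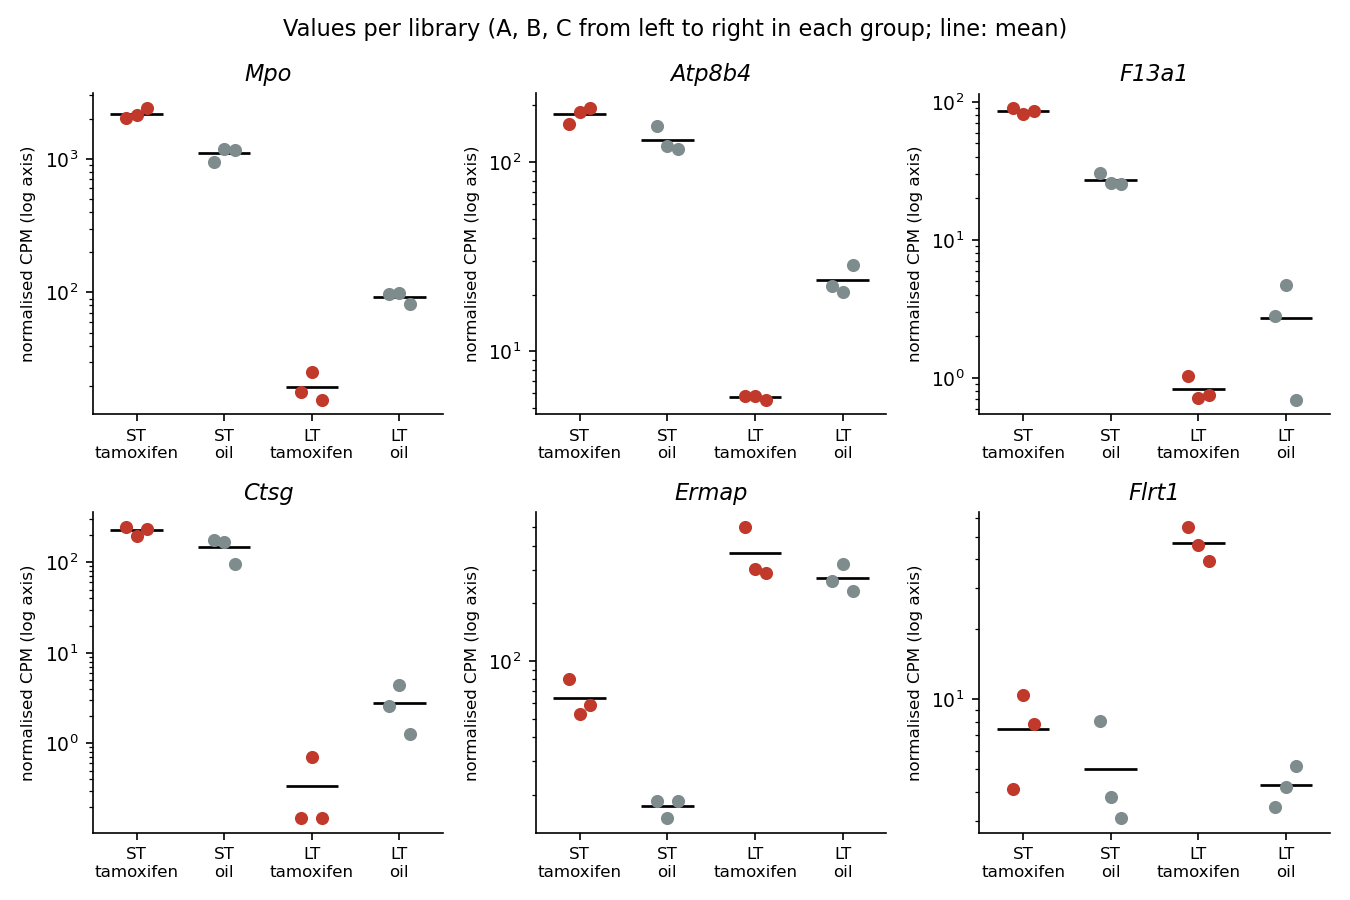
Normalised CPM (log axis) of 6 genes in each of the 12 libraries, with a line at the mean of the 3 libraries of a group. Mpo is higher with tamoxifen in ST cells and lower with it in LT cells, Ermap is raised in ST cells from a level far below that of LT cells, and Flrt1 stands at 39.2 to 55.2 in LT tamoxifen and at 10.4 or less in every other library.

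In the negative direction, the smallest p was that of Flrt1, a membrane protein with leucine-rich repeats, which lies outside the naming rule because of its low mean and was chosen after its values were seen. It had 4.12, 10.4 and 7.83 normalised CPM in ST tamoxifen, against 8.06, 3.81 and 3.08 in ST oil. LT cells had 55.2, 46.1 and 39.2 with tamoxifen, against 3.44, 4.17 and 5.15 with oil. The ST groups overlapped, whereas each LT tamoxifen library stood far above each LT oil library. Flrt1 rose in LT cells (3.19, limma adjusted p = 1.6e-05), and the difference of effects narrowly missed the threshold (-2.67 ± 0.48, adjusted p = 0.064). It passed in 9 of 26 alternatives. BC035044, also chosen after its values were seen, fell in LT cells (-1.54, adjusted p = 0.0027) to 3.42, 6.42 and 3.76 with tamoxifen, against 18.2, 11.7 and 14.6 with oil. It stood at 75.05, 93.0 and 66.6 in ST tamoxifen, against 80.8, 67.1 and 81.6 in ST oil, where the groups overlapped (difference 1.56 ± 0.33, adjusted p = 0.11).

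The 4 genes the naming rule gives in the negative direction were Rpl5, Trim24, Zfp488 and Nme2, none of which passed. Rpl5, a protein of the large ribosomal subunit, had 95.2, 107 and 112 normalised CPM in ST tamoxifen, against 163, 158 and 122 in ST oil, and 109, 89.4 and 105 in LT tamoxifen, against 72.0, 64.7 and 74.8 in LT oil (difference -0.997 ± 0.212, limma adjusted p = 0.113). Its groups did not overlap, tamoxifen being lower in ST and higher in LT cells, and its counts can share reads with processed copies of the gene. Trim24, a cofactor of nuclear receptors, fell in ST cells (-0.74, adjusted p = 0.00486), to 99.5, 94.1 and 85.4 with tamoxifen, against 178, 140 and 152 with oil. Its LT libraries overlapped at 145, 113 and 117 with tamoxifen, against 108, 119 and 115 with oil (difference -0.86 ± 0.204, adjusted p = 0.16). Zfp488, a zinc finger protein, also fell in ST cells (-0.99, adjusted p = 0.00375) and differed by -1.07 ± 0.256 (adjusted p = 0.16). Nme2, a nucleoside diphosphate kinase, differed by -1.08 ± 0.278 (adjusted p = 0.168); its symbol stands on more than 1 line of the table, and the line with the higher mean was used.

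Erythroid genes gave the highest count of positive differences among the 45 lists, with 10 of 30 past the unadjusted threshold and 1 in the negative direction (median 0.40). In ST cells 9 of them rose, where 3.88% of all genes did, and 0 fell. In LT cells 0 changed past the threshold, where 0.236% of all genes did, so nothing is read from that count. Ermap, an erythroid membrane protein, had 80.4, 52.7 and 58.9 normalised CPM in ST tamoxifen, against 18.6, 15.1 and 18.6 in ST oil (1.80, limma adjusted p = 0.000105). LT cells had 503, 300 and 288 with tamoxifen, against 263, 322 and 232 with oil, so they overlapped at a level several times that of ST cells (0.38, adjusted p = 0.495). Its difference of effects was 1.42 ± 0.284 (adjusted p = 0.0943). Car1, a carbonic anhydrase of red cells, had 413, 242 and 291 in ST tamoxifen, against 108, 156 and 113 in ST oil, and 887, 790 and 906 in LT tamoxifen, against 690, 910 and 706 in LT oil (difference 1.13 ± 0.25, adjusted p = 0.14). Klf1, the transcription factor that drives erythroid genes, rose in ST cells (1.33, adjusted p = 0.0055) and differed by 0.94 ± 0.37 (adjusted p = 0.36). In oil, 20 of the 30 genes were lower in ST cells than in LT cells and 0 were higher, so ST cells started from the lower level.

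The members of the erythroid list differed in sign. Epb4.2, a protein of the red cell membrane skeleton, was the 1 member with a negative unadjusted difference (-1.43 ± 0.54), at 2.52, 0.714 and 0.642 normalised CPM in ST tamoxifen, against 1.81, 3.81 and 3.66 in ST oil. The haemoglobin gene Hbb-b1, the main product of erythroblasts, stood at 12.6, 6.71 and 3.98 in ST tamoxifen and 8.72, 11.1 and 17.7 in ST oil, with overlapping groups. It stood at 4.61, 2.71 and 8.57 in LT tamoxifen and 5.94, 2.83 and 7.38 in LT oil. Of 15 erythroblast markers 3 were past the unadjusted threshold in the positive direction and 2 in the negative one. They summed to 132 to 179 in ST tamoxifen, 122 to 133 in ST oil, 363 to 570 in LT tamoxifen and 311 to 361 in LT oil. Rhag, an erythroid channel protein of the Rh complex, rose in ST cells (1.82, limma adjusted p = 0.00312) and differed by 1.19 ± 0.431 (adjusted p = 0.321). The part of erythroblasts in these values was not tested.

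Tamoxifen binds the estrogen receptors, so their genes and targets were compared. Esr1, estrogen receptor alpha, had 24.6, 20.999 and 7.58 normalised CPM in ST tamoxifen, against 31.4, 31.7 and 47.1 in ST oil, and 20.4, 28.7 and 19.7 in LT tamoxifen, against 39.1, 38.4 and 43.9 in LT oil. Tamoxifen libraries lay below oil libraries in both populations. The fall passed in ST cells (-1.13, limma adjusted p = 0.0359) and not in LT cells (-0.81, adjusted p = 0.312). No difference of effects was detected (-0.32 ± 0.438, 95% interval -1.24 to 0.59, limma adjusted p = 0.833). The sign of that difference turned without ST tamoxifen library C, to 0.17. Greb1, a classical target that estrogen receptor alpha induces, had 40 reads in ST tamoxifen and 0 in ST oil, and 12 reads in LT tamoxifen and 0 in LT oil. Greb1 rose in ST cells (1.98, limma adjusted p = 0.00375), and its change in LT cells did not pass (1.01, adjusted p = 0.275). Its difference of effects, 0.97 ± 0.518 (adjusted p = 0.51), depends on the added 1 because both oil groups had no read. Of 11 measured genes of the estrogen receptor list 1 was past the unadjusted threshold (Myb, 0.45 ± 0.197) and 0 in the negative direction, with a median of 0.40.

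Genes called in both populations mostly changed in the same direction. The 15 genes called in both made up 1.67% of the 898 called in ST cells, while 0.236% of all genes were called in LT cells. They made up 44.1% of the 34 called in LT cells, while 6.23% of all genes were called in ST cells. Of the 15, 14 changed in the same direction, Mpo being the exception. Pdgfrb, which encodes the PDGF receptor beta, had 10.5, 10.4 and 8.603 normalised CPM in ST tamoxifen, against 41.6, 32.0 and 37.4 in ST oil, and 4.02, 6.42 and 2.26 in LT tamoxifen, against 18.7, 18.98 and 21.6 in LT oil. It fell in both (-1.81 in ST, -2.06 in LT), and the difference of effects was 0.26 ± 0.396 (95% interval -0.56 to 1.08, limma adjusted p = 0.852), its sign turning with a pseudocount of 4 or without LT tamoxifen library C. Thbs1, thrombospondin 1, chosen after its values were seen, rose in both, to 12.4, 17.6 and 18.6 in ST tamoxifen, against 1.15, 0.497 and 0.440 in ST oil, and to 14.7, 24.97 and 18.8 in LT tamoxifen, against 4.48, 4.44 and 1.53 in LT oil. Its difference of effects was 1.10 ± 0.504 (95% interval 0.05 to 2.14, unadjusted p = 0.04, limma adjusted p = 0.438), with 5 reads in ST oil.

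Genes called in one population were looked up in the other. The 2 sets share no library, but whether same-letter ST and LT libraries came from the same mice is not given. Within a treatment, same-letter libraries correlated best with each other, so the look-up is not shown to be independent. Of the 560 genes that rose in ST cells, 474 (84.6%) lay above 0 in LT cells, against 48.1% of all genes, and their median was 0.69 in ST cells, where they were chosen, and 0.24 in LT cells. Of the 338 that fell in ST cells, 106 (31.4%) lay above 0 in LT cells, and the medians were -1.01 in ST and -0.17 in LT. In ST cells 50.5% of all genes lay above 0. The 10 genes that rose in LT cells all lay above 0 in ST cells (median 0.63, and 1.28 in LT), and of the 24 that fell in LT cells 6 lay above 0 in ST cells (median -0.81, and -1.67 in LT). Across all genes the ST and LT effects had a Pearson correlation of 0.22 and a Spearman correlation of 0.23, as a description over genes, which are not independent replicates.

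**Figure D3:**
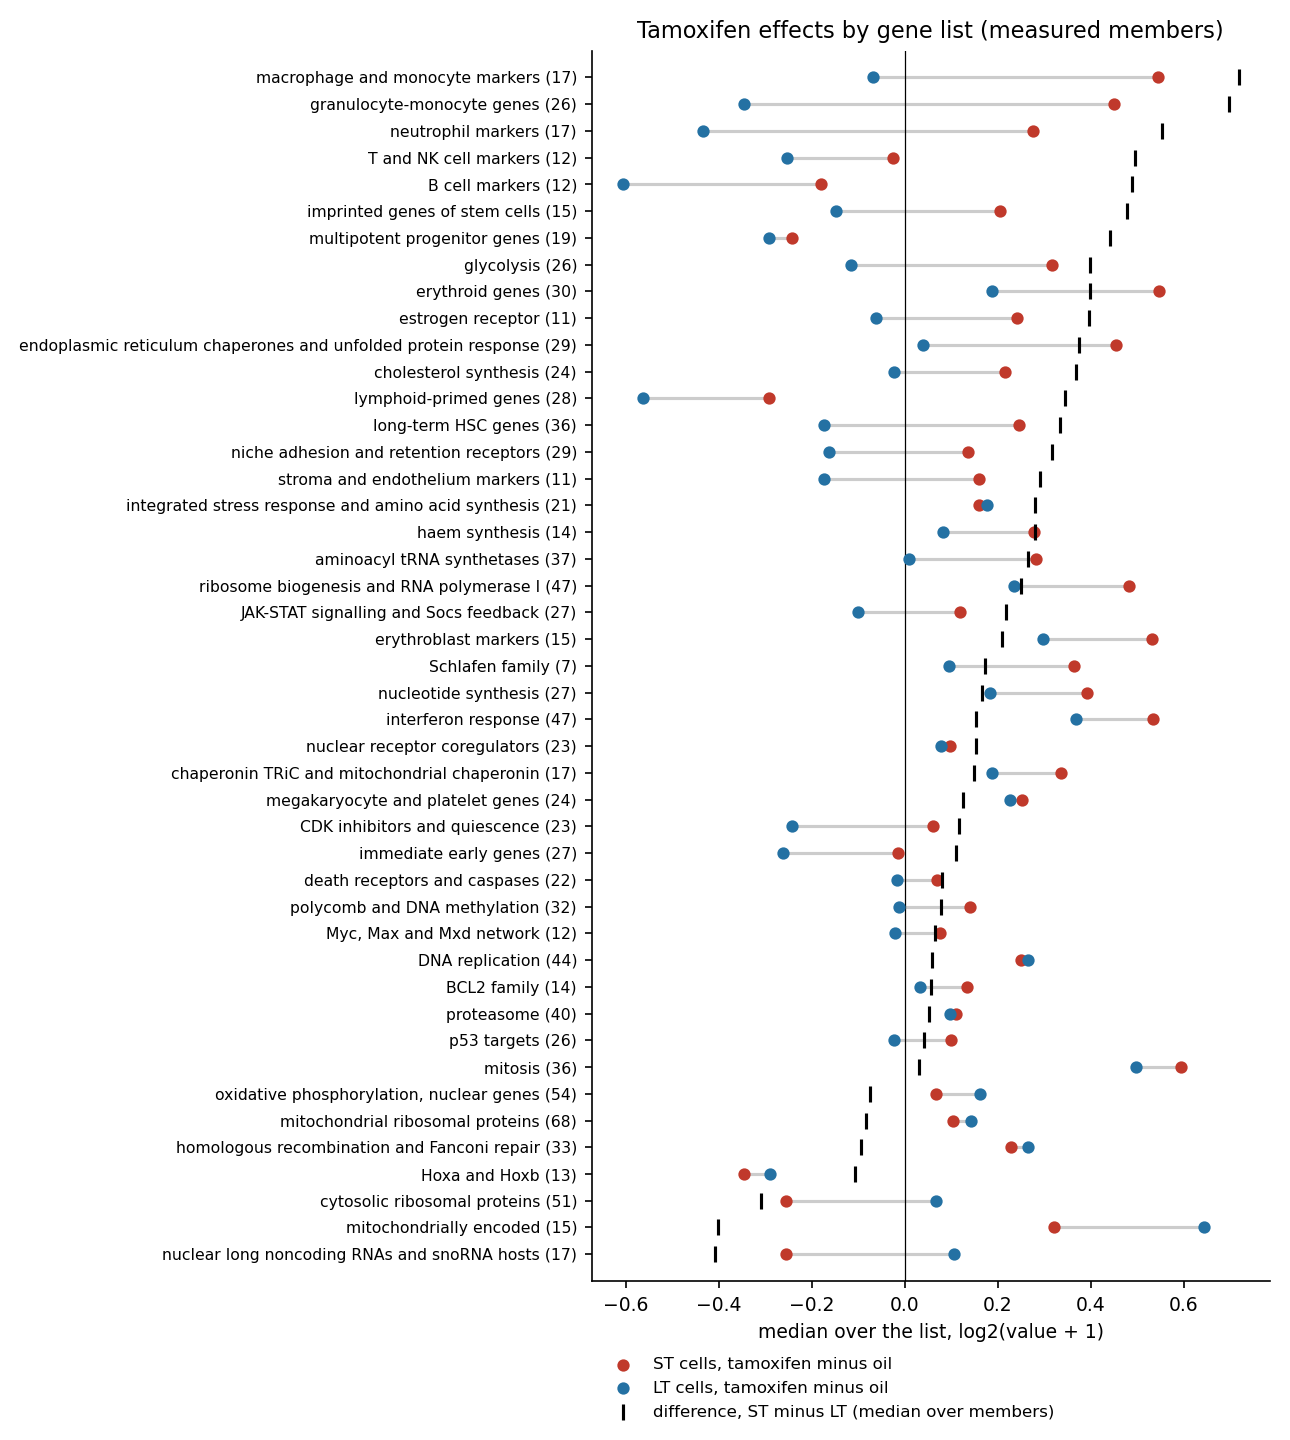
Median tamoxifen effect over the measured members of each of the 45 gene lists in ST cells (red) and in LT cells (blue), and the median of the members' differences (black tick), on the log2(value + 1) scale; the number of measured members stands in parentheses. Granulocyte-monocyte genes have medians of 0.45 in ST and -0.35 in LT, whereas mitosis genes are near 0.5 in both.

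Genes of protein folding and glycolysis had positive median differences. Of 29 genes of endoplasmic reticulum chaperones and the unfolded protein response, 8 were past the unadjusted threshold in the positive direction and 0 in the negative one (median 0.37). In ST cells 11 of them rose, where 3.88% of all genes did. Calr, the calcium-binding chaperone calreticulin, had 419, 404 and 401 normalised CPM in ST tamoxifen, against 229, 281 and 280 in ST oil, and 201, 216 and 237 in LT tamoxifen, against 235, 240 and 233 in LT oil. Its ST groups lay clear of each other and its LT groups overlapped (difference 0.75 ± 0.184, limma adjusted p = 0.16). Of 26 glycolysis genes 5 were positive and 0 negative (median 0.40). Eno1, an enolase with processed copies that can share its reads, had 316, 282 and 295 in ST tamoxifen, against 145, 169 and 181 in ST oil, and 132, 210 and 182 in LT tamoxifen, against 193, 189 and 188 in LT oil (difference 1.00 ± 0.217, adjusted p = 0.121). Without LT tamoxifen library A, which held the lowest LT value of Eno1, the median of the glycolysis list was 0.20.

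Ribosome biogenesis with RNA polymerase I (47 genes) had 9 positive (19.1%) and 1 negative (2.13%) differences at the unadjusted threshold and a median of 0.25. For all genes these shares were 6.26% and 4.60%. In ST cells 18 of the 47 genes rose, where 3.88% of all genes did. Ddx21, a nucleolar RNA helicase, rose in ST cells (0.91, limma adjusted p = 0.00164) and differed by 0.69 ± 0.211 (adjusted p = 0.256). Of 37 aminoacyl tRNA synthetases 7 were positive and 0 negative (median 0.26), led by the lysyl enzyme Kars (0.71 ± 0.215, adjusted p = 0.256). Of 36 mitosis genes 4 were positive and 0 negative, and their median difference of 0.03 equalled that of all genes. Their median effects were close (0.59 in ST, 0.50 in LT), and 12 rose in ST cells, where 3.88% of all genes did. Without LT tamoxifen library A the mitosis median was 0.19, with 11 positive, and it was below 0 in 10 of 26 alternatives. Ccnb1, the mitotic cyclin B1, had 116, 107 and 128 normalised CPM in ST tamoxifen, against 65.7, 74.7 and 43.8 in ST oil, and 52.8, 49.8 and 56.7 in LT tamoxifen, against 44.9, 49.9 and 47.5 in LT oil (difference 0.79 ± 0.247, adjusted p = 0.262). DNA replication had 1 of 44 genes positive and 0 negative (median 0.06). Psme3, a proteasome activator, rose in ST cells to 233, 232 and 229, against 110, 127 and 120 in oil, and differed by 0.81 ± 0.185 (adjusted p = 0.149).

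Genes typical of LT stem cells had median effects of 0.25 in ST cells and -0.17 in LT cells. Of 36, 8 had a positive difference at the unadjusted threshold and 0 a negative one (median 0.33). In ST cells 5 rose and in LT cells 1 did, where 3.88% and 0.0694% of all genes rose. Gstm1, a glutathione S-transferase, had 85.4, 101 and 92.3 normalised CPM in ST tamoxifen, against 49.2, 67.4 and 92.2 in ST oil, and 60.5, 72.9 and 78.3 in LT tamoxifen, against 128, 115 and 122 in LT oil. The ST groups overlapped while the LT groups lay clear of each other, and neither population passed by itself (0.45 in ST, -0.79 in LT). Its difference was 1.24 ± 0.255 (limma adjusted p = 0.0943) and passed in 8 of 26 alternatives. Gstm1 is also a member of the granulocyte-monocyte list. Tek, the angiopoietin receptor of stem cells and endothelium, rose in ST cells (0.81, adjusted p = 0.026) and differed by 0.76 ± 0.30. Of 15 imprinted genes of stem cells 4 were positive and 1 negative (median 0.48). Grb10, an imprinted adaptor that damps growth factor receptors, had 65.8, 75.6 and 78.4 in ST tamoxifen, against 31.1, 34.3 and 37.4 in ST oil, and 139, 145 and 183 in LT tamoxifen, against 141, 175 and 121 in LT oil (difference 0.97 ± 0.23, adjusted p = 0.16). Cdkn1c, the imprinted CDK inhibitor p57 that keeps stem cells quiescent, differed by 1.54 ± 0.41 (adjusted p = 0.186).

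Progenitor and lymphoid lists had negative median effects in both populations. Of 28 lymphoid-primed genes 4 were positive in the difference and 0 negative (median 0.35), with median effects of -0.29 in ST and -0.56 in LT. In ST cells 1 fell and in LT cells 2 did, where 2.34% and 0.166% of all genes fell. Dntt, the terminal transferase of early lymphoid cells, had 11.3, 19.6 and 6.80 normalised CPM in ST tamoxifen, against 35.7, 27.3 and 47.6 in ST oil, and 1.34, 6.71 and 0.752 in LT tamoxifen, against 15.9, 23.8 and 17.4 in LT oil. The groups parted in both, and the difference of effects was not detectable at this spread (1.09 ± 0.65, limma adjusted p = 0.58). Of 19 multipotent progenitor genes 3 were positive and 0 negative (median 0.44), the embigin gene Emb having the smallest p (0.86 ± 0.28, adjusted p = 0.281). Ighm, the immunoglobulin heavy chain, had 394, 195 and 326 in ST tamoxifen, against 67.0, 121 and 100 in ST oil, and 135, 24.4 and 44.7 in LT tamoxifen, against 80.8, 233 and 72.8 in LT oil, the LT groups overlapping widely. Its change passed in neither population (1.64 in ST, limma adjusted p = 0.199, and -1.05 in LT, adjusted p = 0.625). Of 12 B cell markers 2 were positive and 0 negative (median 0.49), and of 12 T and NK cell markers 0 were either (median 0.49). The median effect of the B cell markers was -0.18 in ST cells and -0.61 in LT cells. Ighm, a member of that list, made up most of its sum in each ST tamoxifen library. The B cell markers summed to 287 to 478 in ST tamoxifen, 121 to 243 in ST oil, 154 to 205 in LT tamoxifen and 205 to 460 in LT oil. The T and NK cell markers summed to 121 to 168, 130 to 164, 21.4 to 43.7 and 50.1 to 61.1 in the same order of groups. Their part in the lymphoid values was not tested; the B cell genes Ms4a1 and Pax5 and the T cell genes Cd3d, Cd3e and Cd3g were not analysed here.

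Ribosomal protein genes had a negative median difference, and their values in LT cells turned on library A. Of 51 cytosolic ribosomal proteins 0 had a positive and 6 a negative difference at the unadjusted threshold, the median was -0.31 and 8 lay above 0. None changed past the adjusted threshold in ST or LT cells. They summed to 30742 to 33625 normalised CPM in ST tamoxifen and 33274 to 42730 in ST oil. In LT tamoxifen they summed to 13131 in library A and 24668 and 27045 in libraries B and C, against 19225 to 20289 in LT oil. Rps14, a small subunit protein, had 399, 385 and 400 in ST tamoxifen, against 538, 701 and 582 in ST oil, and 64.1, 358 and 434 in LT tamoxifen, against 303, 344 and 291 in LT oil. Library A thus lay below, and libraries B and C above, every LT oil library. Without library A the list's median was -0.67, and 42 of 51 genes had a negative difference at the unadjusted threshold. Counts of these genes are uncertain, since they have many processed copies.

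Oxidative phosphorylation and mitochondrial genes depended on the same library. Of 54 nuclear genes of oxidative phosphorylation 4 were positive and 7 negative (median -0.07), and without LT tamoxifen library A 19 were negative (median -0.29). Cox7b, a cytochrome oxidase subunit, had 117, 90.1 and 89.2 normalised CPM in ST tamoxifen, against 121, 142 and 91.9 in ST oil, and 59.9, 55.5 and 68.7 in LT tamoxifen, against 36.0, 45.1 and 32.4 in LT oil (difference -0.94 ± 0.253, limma adjusted p = 0.19). Of 15 mitochondrially encoded genes 0 were positive and 1 negative, and their median of -0.40 turned to 0.24 without that library. The cytochrome oxidase gene mt-Co3 had 1055, 1159 and 1083 in ST tamoxifen, against 1078, 1406 and 1132 in ST oil. LT cells had 2204, 1140 and 1241 with tamoxifen, against 765, 714 and 1078 with oil, library A standing well above the rest.

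**Figure D4:**
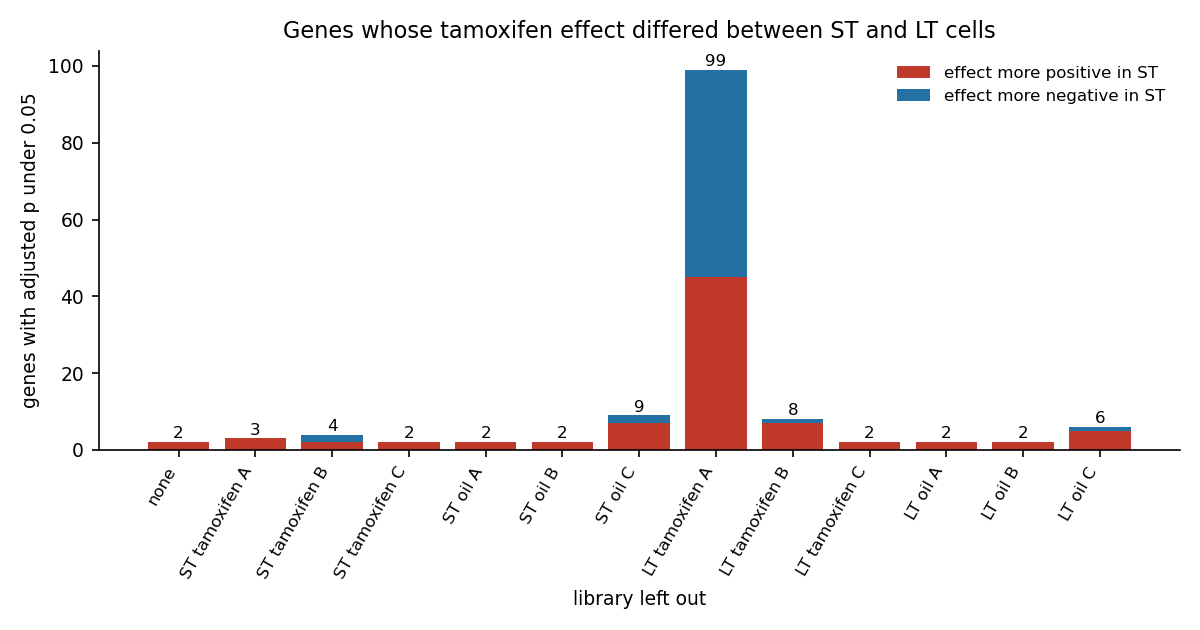
Number of genes with an adjusted p under 0.05 for the difference of effects with all 12 libraries and with each library left out, split by direction (bars from 0). The number is 99 without LT tamoxifen library A and between 2 and 9 without any other.

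Leaving out LT tamoxifen library A left 99 genes past the adjusted threshold, against 2 with all libraries, of which 45 had a more positive and 54 a more negative effect in ST cells, and Mpo and Atp8b4 were among them. The number was 9 without ST oil library C, 8 without LT tamoxifen library B, 6 without LT oil library C, 4 without ST tamoxifen library B, 3 without ST tamoxifen library A and 2 without each of the others. Among the 54 genes were Rps14 and Rpl5, and among the 45 were Ermap, F13a1, Ctsg, Gstm1, Eno1 and Calr. Flrt1 also passed. Library A had 3857229 reads, the highest of the LT tamoxifen group, and 3.99% of its reads lay in mitochondrial genes other than the ribosomal RNAs, against 1.18% to 1.73% in the other 11 libraries.

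The remaining lists named here are given by their counts, beside 6.26% positive and 4.60% negative among all genes. In the positive and negative direction at the unadjusted threshold there were 4 and 0 of 47 interferon response genes (median 0.15), 1 and 0 of 26 p53 targets (0.04), 0 and 1 of 14 BCL2 family genes (0.06) and 0 and 0 of 33 genes of homologous recombination and Fanconi repair (-0.09). There were 1 and 1 of 27 JAK-STAT and Socs genes (0.22), 1 and 0 of 27 immediate early genes (0.11) and 3 and 0 of 24 cholesterol synthesis genes (0.37). The positive share was 8.51% for the interferon response, 12.5% for cholesterol synthesis and 3.85% or less for the rest of these lists. The interferon response list had median effects of 0.53 in ST and 0.37 in LT cells. Of its 47 members 9 rose in ST cells and 1, Oas2, in LT cells, where 3.88% and 0.0694% of all genes rose. Of 29 niche adhesion and retention receptors 6 were positive and 0 negative (median 0.32). Pecam1, an adhesion protein of stem cells, platelets and endothelium, had the smallest p, with 88.9, 93.6 and 86.2 normalised CPM in ST tamoxifen, against 73.2, 69.8 and 95.4 in ST oil, and 40.9, 45.8 and 40.7 in LT tamoxifen, against 61.4, 58.0 and 74.0 in LT oil (0.77 ± 0.226, limma adjusted p = 0.237).

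Long noncoding RNAs had negative median differences. Of 17 nuclear long noncoding RNAs and snoRNA host genes 1 was positive and 4 negative at the unadjusted threshold (median -0.41), and Malat1 and Neat1 fell in ST cells. Malat1, an abundant RNA of nuclear speckles, had 4522, 3606 and 3751 normalised CPM in ST tamoxifen, against 8603, 7986 and 7069 in ST oil, and 6733, 5008 and 5353 in LT tamoxifen, against 7340, 7412 and 7242 in LT oil. It was lower with tamoxifen in each library of both populations, by -0.996 (limma adjusted p = 0.00078) in ST and -0.38 (0.32) in LT, and the difference did not pass (-0.62 ± 0.21, adjusted p = 0.29). Neat1, the RNA scaffold of paraspeckles, differed by -0.78 ± 0.23 (adjusted p = 0.25). The imprinted Rian went the other way (2.10 ± 0.57, adjusted p = 0.19), with 3.59, 2.43 and 6.55 in ST tamoxifen, against 1.15, 4.14 and 3.66 in ST oil, and 2.83, 4.14 and 5.56 in LT tamoxifen, against 10.1, 22.2 and 16.3 in LT oil.

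The same held when genes were classed by GENCODE M21 (13693 of 14419 identifiers matched), a grouping chosen after the values were seen. Of 755 genes that are long noncoding or of the provisional class TEC, 10 (1.32%) had a positive and 96 (12.7%) a negative difference at the unadjusted threshold, and the median was -0.42. For 512 pseudogenes the counts were 13 and 64 (median -0.38), and for 726 identifiers not in that annotation 19 and 109 (median -0.36). For 12351 protein-coding genes they were 856 (6.93%) and 387 (3.13%), with a median of 0.07. The noncoding median was -0.50 in ST cells and -0.04 in LT cells, and the medians of the difference changed little without LT tamoxifen library A (-0.37 for noncoding genes, -0.34 for pseudogenes).

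**Figure D5:**
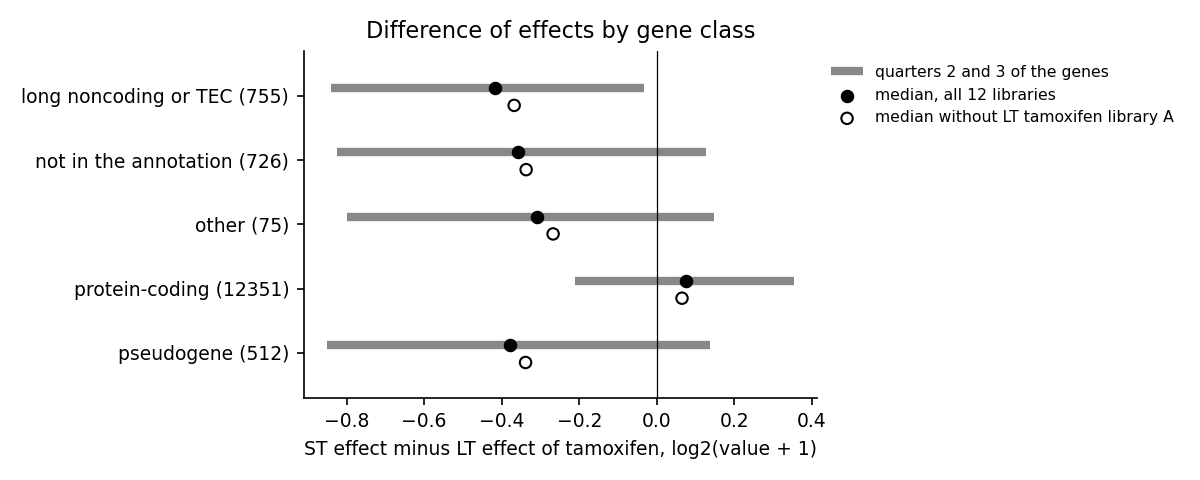
Difference of effects (ST minus LT, log2(value + 1) scale) by GENCODE M21 gene class, with the number of genes in parentheses; bars run between the lower and upper quartiles of the genes, filled points are medians over all 12 libraries and open points medians without LT tamoxifen library A. TEC is a provisional class of that annotation. The medians of protein-coding genes lie just above 0 and those of the other classes near -0.3 to -0.4.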

How the data were processed

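RNA was measured in 18 libraries, per the labels' protocols after Picopure extraction, amplification with Ovation RNA-Seq V2 and ligation of TruSeq adaptors. The authors deposited 1 table with a normalised signal of 14419 genes. The submitters' processing notes name cutadapt, Picard, limma and RSEM 1.17 as tools and NCBIM37 as build; annotation, strand and scaling: not given in the sources used here. In each library every value was a whole number of reads plus 0.5, times 1 constant (100% whole at a tolerance of 0.001 read, largest deviation 2.68e-08).

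From these values, limma 3.58.1 (R 4.3.3, statmod 1.5.0) was fitted on log2(value + 1) to the 12 LT and ST libraries with 1 mean per group (8 residual degrees of freedom, trend and robust settings), with Benjamini-Hochberg adjustment over all genes at 0.05. The pseudocount understates changes of low genes. edgeR 4.0.16 called 2 genes on the recovered reads and DESeq2 1.42.0 called 84; other scalings, filters, pseudocounts, library weights, blocks and leaving out libraries were also tried. The 45 gene lists are described by counts and medians only. Members and lists were chosen with earlier results of these data known. Named genes are Esr1, Esr2, Gper1, Greb1, Pdgfrb, the genes past the threshold with the largest differences or, where fewer than 4 passed in a direction, the 4 with the smallest p, with a mean above the median gene and no provisional symbol, and up to 3 members per list; Esr2 and Gper1 were not analysed here, and some results are not reported here. Fgd5, Mecom, Cd48, Elane, Gfi1, C1qa, Flrt1, BC035044, Mtus1, Aldh1a1, Car1, Klf1, Epb4.2, Hbb-b1, Thbs1, Tek, Dntt, Rps14, Oas2, Malat1 and Neat1 fall outside it. Their values were seen before they were picked. Titles number the ST libraries apart from the LT ones; whether this marks a batch is not given, and a constant offset of a population drops out of the differences.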

Additional observations from a re-analysis of the deposited data

Results flagged for a closer look

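The tamoxifen effect on Mpo differed between ST and LT cells by 3.19 on the log2 scale (limma adjusted p = 1.72e-08), and that on Atp8b4 by 2.32 (limma adjusted p = 3.59e-05). Both stand here because the test of the difference itself passed. With tamoxifen, each of the 3 ST libraries of either gene was above, and each of the 3 LT libraries below, every oil library of its population.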

How the results depend on the processing

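The sign of the difference of effects held for 50 of 52 named genes and 31 of 45 list medians over 26 alternatives. All named genes but Esr1, Greb1 and Pdgfrb were picked by the p of this same difference. The alternatives reuse the same libraries, so a held sign was likely beforehand and the count is no test. The exceptions among genes were Esr1 (-0.62 to 0.17 with 1 library left out, positive without ST tamoxifen library C) and Pdgfrb (-0.0053 with a pseudocount of 4, and -0.044 to 0.55 with 1 library left out, negative without LT tamoxifen library C). Atp8b4 passed throughout, and Mpo in all but the fit with all 18 libraries (3.19, adjusted p = 0.0697). Counts of differing genes moved far more: 8 with all 18 libraries, 4 with a pseudocount of 4, 111 with library weights, 84 with DESeq2, 2 to 99 when 1 library was left out, and 187 without both tamoxifen A libraries, a choice made after seeing the data. The counts in ST cells were 1386 with 18 libraries, 337 without trend and robust settings, 1419 with library weights, 1947 without both A libraries and 269 to 1887 when 1 library was left out (269 without ST oil library A, 467 without ST oil library B, 393 and 307 without ST tamoxifen libraries B and C, 1887 without LT tamoxifen library A). In LT cells they were 60, 20 with a pseudocount of 0.25, 10, 234, 133 with DESeq2, 93, and 7 to 67, the lowest without LT oil library A and the highest without LT tamoxifen library B. The split of ST calls, 560 higher and 338 lower, was 384 and 385 after quantile normalisation, 346 and 499 after rescaling without mitochondrial genes, and 475 and 379 with TMM factors. Whether replicate letters pair libraries is not given. Same-letter ST and LT libraries correlated at 0.0518 to 0.137 within a treatment, each best with its own letter. Those of different letters correlated at -0.0968 to 0.0288. The main fit used no block. A replicate block by letter gave 13 differing genes, and a block by treatment and letter 31. The causes of these changes were not tested.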
